A study of Homo sapiens with 6 samples.

Results

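Transcripts of 6 matrix and mesenchymal genes were followed in Huh7 cells given GABA (gamma-aminobutyric acid, an amino acid transmitter that other tissues than brain also make) and in control cells. The genes were FN1, SPARC, LOX, TIMP3, ADAMTS1 and VIM, which are 6 of the 5187 genes listed in the count files. They were picked by name as genes tied to invasion, with earlier results of the same comparison known, so their values for GABA against control are given as a description and without a test. All 6 were listed and passed the filter on low counts.

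Huh7 is an established human hepatocellular carcinoma line, grown here in DMEM with serum. RNA came from 3 cultures given GABA for 24 h and 3 control cultures, named as biological replicates 1, 2 and 3 in each group. The labels give neither the dose of GABA nor a vehicle, and the cells of both groups carried no other stated treatment. The series is about GABA and gene regulation in liver cancer that spreads, and the comparison asks which transcripts differ when GABA is added.

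Fibronectin, the product of FN1, is a large glycoprotein that cells assemble into fibres through integrin receptors, and the liver also secretes it into plasma. SPARC is a collagen-binding matricellular protein that modulates adhesion and matrix assembly. LOX oxidises lysines of collagen and elastin so that fibres become cross-linked. ADAMTS1 is a secreted metalloprotease that cleaves proteoglycans such as versican, and TIMP3 is a matrix-bound inhibitor of metalloproteases of the MMP, ADAM and ADAMTS families. VIM encodes vimentin, the intermediate filament of mesenchymal cells, and many carcinoma lines make it as well.

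The files do not list all annotated genes. File order follows the comparison itself: over the 4981 tested genes, rank in the files correlated with the p-value at a Spearman rho of 0.93 (across genes, which are not independent replicates). The smallest absolute log2 fold change of any tested gene was 0.12. FN1 stood at place 6 of the list, TIMP3 at 13, SPARC at 19, ADAMTS1 at 22, LOX at 295 and VIM at 1987. Of the tested genes 98.7% passed edgeR's quasi-likelihood test at an adjusted p of 0.05, with 47.6% higher and 51.2% lower, so a call by itself says little here. Which direction held more calls depended on the scaling: 48.2% of the calls were higher with TMM, 53.7% with DESeq2 size factors and 54.8% with DESeq2. Adjustment ran over these preselected genes alone, so the adjusted p-values printed here are too small. Counts on the listed genes summed to 7719243 to 8392945 in GABA libraries and to 7702666 to 8235028 in control libraries. These are totals over the listed genes and not library depths. Levels are CPM, counts scaled to that total with TMM factors. Same-group libraries differed by more than counting noise, with a chi-square per gene of 2.70 to 4.39 between GABA libraries and 5.38 to 25.7 between control libraries (1 would be counting noise alone, and the largest value was that of control replicates 2 and 3). Mitochondrially encoded counts made up 6.66% to 7.04% of the counts on listed genes in GABA libraries. In control replicates 1, 2 and 3 they made up 7.74%, 7.14% and 9.11%, again of listed genes and not of whole libraries. Control replicate 3 therefore stood apart, and its part in the results was not tested beyond leaving it out. Of 19 markers of hepatocytes and of this line 1, FOXA1, was listed. FOXA1 was near the floor, at 0.65 to 1.28 CPM in GABA libraries and 2.54 to 2.79 CPM in control libraries. Its log2 fold change was -1.33 ± 0.34 (SE). ALB and AFP are not among the listed genes, so the identity of the line was not checked here. None of 11 endothelial and 12 immune markers was listed, and 3 of 14 fibroblast and stellate cell markers were (PDGFRB, COL3A1 and THY1). The summed level of these 3 was 141 CPM in GABA libraries and 120 to 141 CPM in control libraries. A marker can be expressed and still be unlisted, so the presence of other cells was not checked here either.

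The 6 genes lie on 5 chromosomes (GRCh38, GENCODE release 29). FN1 (ENSG00000115414) spans chr2:215360440-215436172 on the minus strand with 27 annotated transcripts and 9.10 kb of exons. SPARC (ENSG00000113140, chr5:151661096-151687165) and LOX (ENSG00000113083, chr5:122063195-122078360) both lie on the minus strand of chromosome 5. TIMP3 (ENSG00000100234, chr22:32801701-32863043, plus strand) has 1 annotated transcript and sits within SYN3, a gene of the opposite strand, with 0% of its exon length shared. ADAMTS1 (ENSG00000154734, chr21:26835747-26845409, minus strand) overlaps no annotated gene. VIM (ENSG00000026025, chr10:17228259-17237593, plus strand) shares 24.4% of its exon length with VIM-AS1 and AL133415.1, both antisense and neither of them listed. The counts are per gene, so isoforms of FN1, such as those with extra domains that tissues make but plasma fibronectin lacks, were not separated. Whether counting used the strand is not given in the sources used here, so reads of overlapping antisense genes cannot be told apart.

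Promoter windows from RefSeq (build GRCh38.p14, 250 bases before to 50 after the start of the transcript) were matched for 5 of the 6 genes by symbol, all but ADAMTS1. The windows of FN1, TIMP3, LOX and SPARC are printed 5′ to 3′ on the coding strand because 3 of these genes were higher and 1 was lower with GABA. Capitals mark matches on either strand to 4 motifs. They are TGACGTCA (the cAMP response element), the CCAAT box, the core of the TATA box (searched as TATAA) and the core of the hypoxia response element (searched as ACGTG). The GC box (GGGCGG) and the AP-1 site (TGANTCA) were also searched on both strands and are not capitalised. No matches of different motifs overlapped in the 5 windows. The motifs were chosen after the windows had been read.
FN1 (chr2:215436019-215436318): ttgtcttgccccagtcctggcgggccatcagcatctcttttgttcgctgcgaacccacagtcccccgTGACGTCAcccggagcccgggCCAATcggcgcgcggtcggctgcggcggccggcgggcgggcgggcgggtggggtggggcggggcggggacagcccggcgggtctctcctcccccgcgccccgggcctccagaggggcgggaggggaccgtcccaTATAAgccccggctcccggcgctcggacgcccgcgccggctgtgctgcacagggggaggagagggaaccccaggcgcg
TIMP3 (chr22:32801455-32801754): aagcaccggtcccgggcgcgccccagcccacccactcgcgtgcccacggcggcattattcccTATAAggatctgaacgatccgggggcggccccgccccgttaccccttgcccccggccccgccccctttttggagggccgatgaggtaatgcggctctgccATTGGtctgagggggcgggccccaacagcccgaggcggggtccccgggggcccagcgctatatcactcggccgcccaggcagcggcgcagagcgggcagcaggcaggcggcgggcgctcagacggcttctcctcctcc
LOX (chr5:122078210-122078509): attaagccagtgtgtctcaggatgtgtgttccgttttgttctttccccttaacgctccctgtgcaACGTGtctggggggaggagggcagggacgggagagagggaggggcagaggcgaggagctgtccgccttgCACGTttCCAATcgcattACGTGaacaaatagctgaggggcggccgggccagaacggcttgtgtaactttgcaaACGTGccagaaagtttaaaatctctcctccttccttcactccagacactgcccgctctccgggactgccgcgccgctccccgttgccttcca
SPARC (chr5:151686866-151687165): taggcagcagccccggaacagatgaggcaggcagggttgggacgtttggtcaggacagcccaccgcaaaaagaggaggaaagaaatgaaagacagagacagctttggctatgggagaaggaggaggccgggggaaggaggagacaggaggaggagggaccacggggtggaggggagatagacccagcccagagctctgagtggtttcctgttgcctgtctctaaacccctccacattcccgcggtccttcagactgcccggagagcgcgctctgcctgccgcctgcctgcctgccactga

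The FN1 window held TGACGTCA at position -183 and TATAA at -28, counted from the first transcribed base as +1, and it was the 1 window of the 5 with TGACGTCA, which 1.98% of the 27305 RefSeq promoters hold. CCAAT on either strand was found in the windows of FN1 (-162), LOX (-109) and TIMP3 (-88), and in 35.7% of all promoters. GGGCGG occurred 6 times in the FN1 window, 5 times in that of TIMP3 and 1 time each in those of LOX and VIM, and 44.6% of all promoters hold it. ACGTG occurred 4 times in the LOX window and 1 time in the VIM window (21.6% of all promoters). TATAA occurred 1 time each in the windows of FN1, TIMP3 and VIM (21.1% of all promoters). In TIMP3 it stood at -188 and in VIM at -217, far from the start. TGANTCA, which 7.76% of all promoters hold, was in none of the 5 windows. None of the 6 motifs matched in the SPARC window. That window lies wholly within the GENCODE span of SPARC, whose outer start is 250 bases upstream of the RefSeq start used here. Bases upstream of that outer start were not searched. For FN1 and LOX the GENCODE outer start is 104 and 101 bases upstream, and for TIMP3 and VIM the starts differ by 4 and 18 bases. Positions hold for the RefSeq start only. GC content was 76.7% for FN1, 72.7% for TIMP3, 61.3% for SPARC, 58.0% for LOX and 48.0% for VIM, against a median of 58.3% over all promoters. LOX has 3 windows in the table, and the most upstream is shown. These matches describe the letters only.

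Fibronectin transcripts were higher with GABA. FN1 had 2215, 2243 and 2312 CPM in GABA replicates 1, 2 and 3, against 1238, 1215 and 1230 CPM in control replicates 1, 2 and 3. The libraries within each group lay close together, and the lowest GABA library was 977 CPM above the highest control library. The means were 2257 ± 49.9 CPM in GABA cells and 1228 ± 11.6 CPM in control cells (SD, n = 3 each), which is 1.84 times, or a log2 fold change of 0.88 ± 0.06 (SE from the fit).

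SPARC was the member with the clearest lower level. It had 1597, 1605 and 1625 CPM in the GABA libraries, against 2848, 2743 and 2581 CPM in the control libraries. The GABA libraries lay close together, whereas the control libraries spread more widely, with replicate 3 lowest. The means were 1609 ± 14.4 CPM with GABA and 2724 ± 134 CPM in control cells, a ratio of 0.591 and a log2 fold change of -0.76 ± 0.06. On the opposite strand, the noncoding gene CLMAT3 overlaps 7.89% of the exon length of SPARC. CLMAT3 was examined because of this overlap, after the values had been seen. It had 46, 53 and 40 counts in GABA libraries, against 23, 22 and 10 counts in control libraries, and it passed the test as higher (5.83 ± 1.07 CPM with GABA and 2.30 ± 0.89 CPM in control cells, log2 fold change 1.33 ± 0.30, edgeR adjusted p = 0.0025). Its counts are a small part of those of SPARC, which ran from 12425 to 13770 in GABA libraries and from 20297 to 23460 in control libraries.

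LOX, the collagen cross-linking enzyme, was higher by a smaller step. It had 1439, 1437 and 1534 CPM in GABA libraries, against 1065, 983 and 1115 CPM in control libraries. The means were 1470 ± 55.7 CPM with GABA and 1054 ± 66.6 CPM in control cells, or 1.39 times, and the log2 fold change was 0.48 ± 0.06. SRFBP1, a gene of the opposite strand that covers 2.49% of the exon length of LOX, was the other overlapping gene that was listed. It also passed as higher, at 106 ± 1.21 CPM with GABA and 87.4 ± 8.16 CPM in control cells (log2 fold change 0.28 ± 0.09, edgeR adjusted p = 0.0098).

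The protease ADAMTS1 and the inhibitor TIMP3 were also higher with GABA. ADAMTS1 had 1774, 1736 and 1816 CPM in GABA libraries, against 1035, 917 and 868 CPM in control libraries (means 1776 ± 40.2 CPM with GABA and 940 ± 85.8 CPM in controls, 1.89 times, log2 fold change 0.92 ± 0.07). TIMP3 had 1293, 1263 and 1330 CPM in GABA libraries, against 717, 644 and 621 CPM in control libraries (means 1296 ± 33.5 CPM with GABA and 661 ± 50.3 CPM in controls, 1.96 times, log2 fold change 0.97 ± 0.07). Both genes were highest in replicate 1 and lowest in replicate 3 among the controls, and the groups stayed far apart.

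Vimentin had the smallest fold change of the 6 genes. VIM had 3456, 3562 and 3704 CPM in GABA libraries, against 4349, 3792 and 4661 CPM in control libraries. Control replicate 2 lay only 88.5 CPM above the highest GABA library, so the groups almost met. The means were 3574 ± 124 CPM with GABA and 4267 ± 440 CPM in control cells, a ratio of 0.837 and a log2 fold change of -0.26 ± 0.08. The median log2 fold change over all tested genes was -0.18, so VIM lay near the middle of the files. The exon overlap with unlisted antisense genes named above applies to the value of VIM.

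**Figure D1:**
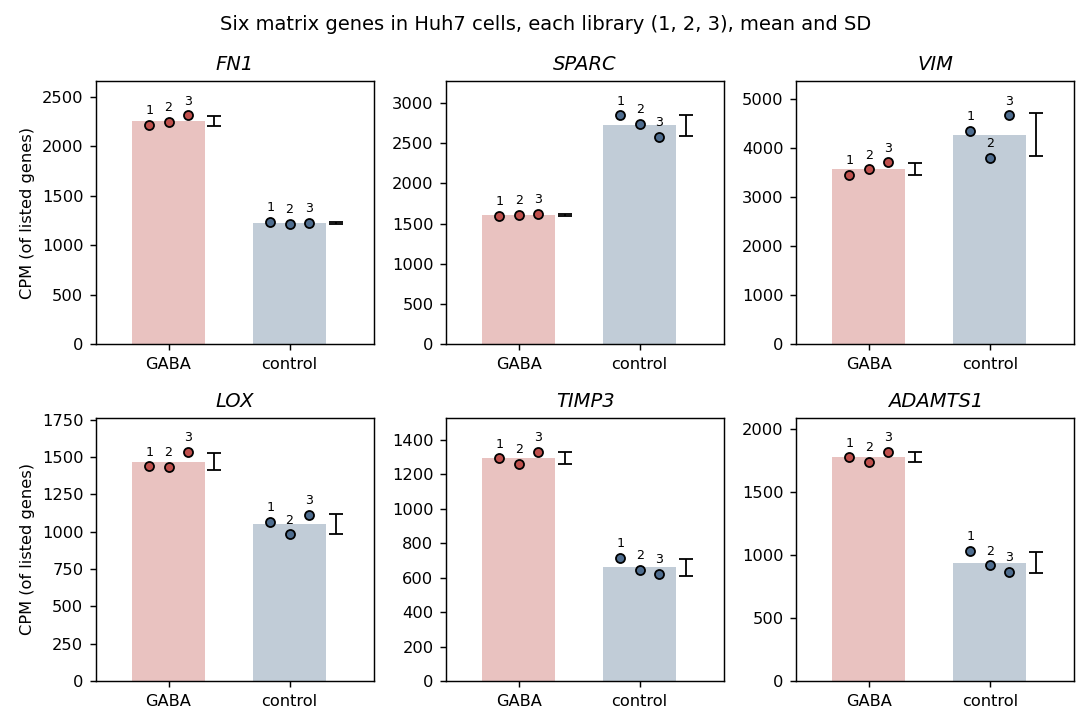
Levels of the 6 genes in CPM of the listed genes (vertical axes from 0) in the 3 GABA and 3 control libraries; bars are means, points are libraries with their replicate numbers, and black brackets are SD. FN1, LOX, TIMP3 and ADAMTS1 sit higher and SPARC lower in all GABA libraries, while VIM in GABA replicate 3 (3704 CPM) and control replicate 2 (3792 CPM) nearly touches.

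In all 6 genes the groups did not overlap, which also held for 92.5% of the tested genes. In bulk RNA, fewer cells with a transcript and less of it per cell cannot be told apart. The log2 fold changes moved little when single libraries were left out. Without control replicate 3, the library with more mitochondrial counts, they were 0.88 for FN1, -0.80 for SPARC, 0.52 for LOX, 0.93 for TIMP3, 0.86 for ADAMTS1 and -0.19 for VIM. The spread for VIM was the widest, at -0.34 without control replicate 2 and -0.19 without control replicate 3.

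Together the 6 genes took 1.18% to 1.24% of the counts in GABA libraries and 1.03% to 1.13% in control libraries, since the 4 higher genes outweighed SPARC and VIM. The mean level with GABA minus that in controls was 1029 CPM for FN1, 836 CPM for ADAMTS1, 635 CPM for TIMP3 and 416 CPM for LOX, whereas SPARC had a difference of -1115 CPM and VIM of -694 CPM.

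Per kilobase of exon, VIM was the most abundant of the 6 in both groups. In GABA cells the order of levels was VIM (1913 ± 66.6 CPM per kb), SPARC (435 ± 3.89), ADAMTS1 (342 ± 7.75), LOX (284 ± 10.8), TIMP3 (281 ± 7.29) and FN1 (248 ± 5.48 CPM per kb). The libraries of LOX and TIMP3 overlapped there, so those neighbours did not differ beyond their spread. In control cells it was VIM (2284 ± 236 CPM per kb), SPARC (736 ± 36.2), LOX (203 ± 12.9), ADAMTS1 (181 ± 16.5), TIMP3 (144 ± 10.9) and FN1 (135 ± 1.28 CPM per kb), and LOX overlapped with ADAMTS1 and TIMP3 with FN1. FN1 had the lowest mean per length in both groups. Among the 4981 tested genes FN1 ranked 192 per kb in GABA cells and 389 in control cells, SPARC ranked 107 in GABA cells and 62 in control cells, and VIM 21 in both.

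Ratios of raw counts within a library do not depend on the scaling between libraries. The ratio of FN1 to SPARC counts was 1.39, 1.40 and 1.42 in the GABA libraries, against 0.435, 0.443 and 0.476 in the control libraries. FN1 had more counts than SPARC in all 3 GABA libraries and fewer in all 3 control libraries; since the genes differ in length, this is a comparison between groups and not between the levels of these genes. The ratio of ADAMTS1 to SPARC was 1.11, 1.08 and 1.12 with GABA, against 0.363, 0.334 and 0.336 in controls. Within the higher genes the ratios were closer. FN1 to LOX was 1.54 ± 0.03 with GABA and 1.17 ± 0.07 in controls. TIMP3 to ADAMTS1 was 0.730 ± 0.002 with GABA and 0.704 ± 0.011 in controls, a ratio that ran only from 0.693 to 0.732 over all 6 libraries.

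**Figure D2:**
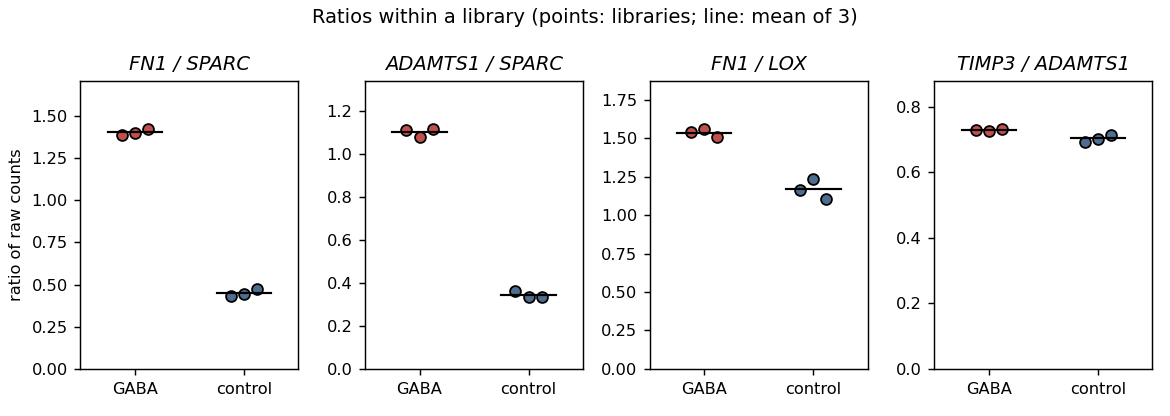
Ratios of raw counts between pairs of the 6 genes within each library (vertical axes from 0); points are libraries, lines are means of 3. FN1 to SPARC averaged 1.40 in GABA and 0.451 in control libraries, while TIMP3 to ADAMTS1 lay between 0.693 and 0.732 in all 6.

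File order follows the p-value of the comparison, which also depends on the spread within a group. The spread is therefore given as a description too. It was larger among controls for 5 of the 6 genes. The coefficient of variation was 0.894% with GABA and 4.92% in controls for SPARC. It was 2.59% with GABA and 7.62% in controls for TIMP3, and 2.27% with GABA and 9.13% in controls for ADAMTS1. For VIM it was 3.48% with GABA and 10.3% in controls, and for LOX 3.79% with GABA and 6.32% in controls. FN1 differed in this, with 2.21% with GABA and 0.949% in controls. Over the 367 genes averaging 500 CPM or more, the medians were 2.85% with GABA and 6.57% in controls, so the wider spread of controls was shared by other abundant genes. Among GABA libraries all 6 genes lay below their mean in replicates 1 and 2 and above it in replicate 3. Among controls the 6 genes deviated in different patterns. ADAMTS1, TIMP3 and SPARC lay above their control mean in replicate 1 (by 0.14, 0.12 and 0.07 on the log2 scale) and below it in replicate 3 (by -0.11, -0.09 and -0.08). VIM and LOX lay below in replicate 2 (-0.17 and -0.10) and above in replicate 3 (0.13 and 0.08). FN1 stayed within 0.02 of its mean.

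**Figure D3:**
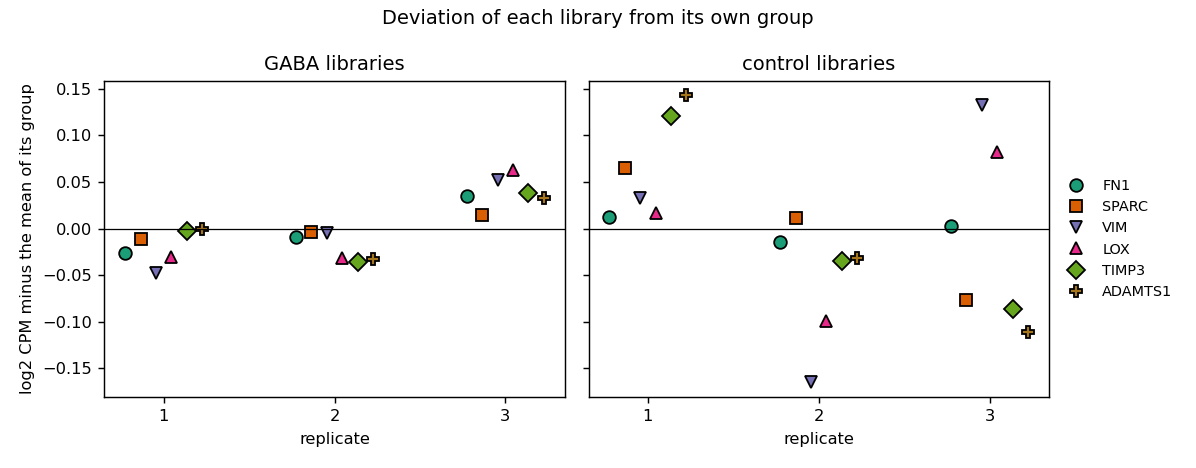
Deviation of each library from the mean of its own group, in log2 CPM, for the 6 genes; GABA libraries are on the left, control libraries on the right, and symbols stand for genes. ADAMTS1 and TIMP3 move together in every library, but in GABA libraries all 6 genes share their direction. The largest deviation is that of VIM in control replicate 2 (-0.17).

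The genes with the most similar profiles were taken as those with the smallest Euclidean distance between centred log2 CPM profiles over the 6 libraries, with 3069 candidate genes whose mean level was 50 CPM or more. These distances include the contrast and are a description. TIMP3 and ADAMTS1 were each other's nearest gene (distance 0.07), and SFRP1, a secreted inhibitor of Wnt signalling, was also among the 3 nearest genes of both. FN1 was nearest to DOCK4, an activator of the GTPase Rac (0.08), then SOX9, a progenitor transcription factor (0.08), and F3, tissue factor (0.11). SPARC was nearest to ALPK1, a kinase of innate immunity (0.07), GSR, the glutathione reductase (0.10), and VDR, the vitamin D receptor (0.11). LOX was nearest to RPA2, CRLF3 and NPRL3 (0.09, 0.09 and 0.10), and VIM to GTF2H1, PPP1CC and SPCS3 (0.05, 0.06 and 0.06).

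Related genes were read from 13 lists that leave out the 6 genes. They hold 345 genes, of which 108 were listed and tested. Of these 58 were higher and 47 lower with GABA and 3 did not pass, so 97.2% passed against 98.7% of all tested genes. Their median log2 fold change was 0.21, against -0.18 over all tested genes, and the median absolute change was 0.42 against 0.40. Values of single genes below are means in CPM with SD (n = 3 each) and log2 fold changes with SE. Among the list genes named, 10% or more of the exon length is shared with other annotated genes in DDIT4 (41.2%), SYNM (27.7%), TGFB2 (26.6%), SERPINB2 (19.9%), MMP9 (18.4%), PCOLCE (16.6%), KRT18 (16.3%), ADAM17 (13.6%), THY1 (10.7%) and TIMP2 (10.0%), and their counts are uncertain to that extent.

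Among 12 tested genes of fibronectin assembly and its receptors 6 rose and 6 fell (median 0.01). TGM2, a transglutaminase that cross-links fibronectin, rose (5304 ± 74.1 CPM with GABA and 4031 ± 451 CPM in controls, log2 fold change 0.40 ± 0.08, edgeR adjusted p = 0.0011), as did the hyaluronan receptor CD44 (0.33 ± 0.06). FBN2, a microfibril protein, fell (1062 ± 34.7 CPM with GABA and 1512 ± 70.8 CPM in controls, -0.51 ± 0.06, edgeR adjusted p = 4.6e-05). So did the focal adhesion genes PARVA (-0.47 ± 0.07) and TNS2 (-0.42 ± 0.08) and ITGB5, a subunit of a vitronectin receptor (-0.40 ± 0.07). The subunits ITGA5 and ITGB1 of the main fibronectin receptor were not listed.

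The matricellular relatives of SPARC also moved both ways. Of 7 tested genes 4 rose and 3 fell (median 0.17), but 2 rose without control replicate 1 or 2 and 1 rose without GABA replicate 1 or 2. THBS1, thrombospondin, rose to 7951 ± 78.2 CPM with GABA, against 5758 ± 369 CPM in controls (0.47 ± 0.06, edgeR adjusted p = 1.3e-04). FSTL1, a follistatin-like glycoprotein of the SPARC family, fell to 534 ± 12.6 CPM, against 763 ± 51.1 CPM in controls (-0.51 ± 0.06, edgeR adjusted p = 6.9e-05). CCN3 (-0.48 ± 0.11) and TNXB, a tenascin (-0.60 ± 0.17), were also lower. CCN2, connective tissue growth factor, had 0.17 ± 0.06, and its call was lost without control replicate 2, GABA replicate 1 or GABA replicate 2 (edgeR adjusted p = 0.051, 0.077 and 0.061).

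Of 9 tested genes of collagen cross-linking and processing 6 rose and 3 fell (median 0.37). Next to LOX, its relative LOXL4 rose (47.2 ± 1.94 CPM with GABA and 35.1 ± 6.35 CPM in controls, 0.43 ± 0.13, edgeR adjusted p = 0.0086). P4HB, the disulfide isomerase subunit of prolyl 4-hydroxylase, rose by 0.37 ± 0.06, P3H2, a prolyl 3-hydroxylase, by 0.36 ± 0.08, and PCOLCE, an enhancer of procollagen C-proteinase, by 0.72 ± 0.19. The counts of lower genes in this list were less firm, with 0 left without GABA replicate 2 and 1 left without control replicate 1 or 2. Of 15 tested collagens and laminins 8 rose, 6 fell and 1 did not pass (median 0.21), and without GABA replicate 2, 3 fell. COL12A1, a fibril-associated collagen, rose by 0.49 ± 0.06 and LAMB3, a laminin chain of epithelia, by 0.50 ± 0.06, whereas LAMB1, another laminin chain, fell (-0.51 ± 0.05).

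The inhibitors related to TIMP3 did not all go its way. TIMP2, another metalloprotease inhibitor, fell (1199 ± 9.85 CPM with GABA and 1403 ± 83.5 CPM in controls, -0.23 ± 0.06, edgeR adjusted p = 0.0055), and TIMP1 and TIMP4 were not listed. The serpin SERPINB2 rose (152 ± 19.3 CPM with GABA and 64.6 ± 8.90 CPM in controls, 1.24 ± 0.11), while the inhibitors CST3 and TFPI2 fell (-0.23 ± 0.06 and -0.51 ± 0.15). In this list 2 of 5 tested genes rose and 3 fell (median -0.23).

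Of the proteases that TIMP proteins inhibit, 2 of 23 matrix metalloproteases were listed. MMP9, a gelatinase, rose (45.0 ± 3.41 CPM with GABA and 30.2 ± 4.99 CPM in controls, 0.57 ± 0.13, edgeR adjusted p = 0.0024), and MMP2, the other gelatinase, fell (15.6 ± 2.68 CPM with GABA and 25.1 ± 1.96 CPM in controls, -0.69 ± 0.15, edgeR adjusted p = 0.0018). Of 8 tested relatives of ADAMTS1 among the ADAM and ADAMTS genes 2 rose and 6 fell (median -0.32). ADAMTS6 rose by 0.71 ± 0.08 and ADAM19 by 0.42 ± 0.07. ADAMTS10 (-0.78 ± 0.13), ADAM17, the sheddase of TNF (-0.31 ± 0.07), ADAM9 (-0.25 ± 0.06) and ADAM8 (-0.71 ± 0.18) fell. Of the proteoglycans, basement membrane linkers and related enzymes, 4 of 6 tested genes rose and 2 fell (median 0.49). Of those that fell, 1 was left without control replicate 1, control replicate 2 or GABA replicate 1, and 0 without GABA replicate 2. SDC1, a syndecan, rose by 0.53 ± 0.09, and SULF2, a heparan sulfate sulfatase, by 1.21 ± 0.17 at a low level (14.2 ± 0.21 CPM with GABA and 6.13 ± 0.76 CPM in controls).

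Of the intermediate filament genes and linkers beside VIM, 6 of 9 tested genes rose, 2 fell and 1 did not pass (median 0.36). The lamins LMNA, LMNB1 and LMNB2 rose by 0.43 ± 0.09, 0.39 ± 0.09 and 0.64 ± 0.12, KRT19, a keratin of biliary and progenitor cells, by 0.36 ± 0.06, and DST, a linker of filaments to adhesions, by 0.49 ± 0.06 (edgeR adjusted p = 5.1e-05). The 2 falls were those of SYNM and KRT18, and none was left without control replicate 1, GABA replicate 1 or GABA replicate 2. Of 24 genes of the mesenchymal transition, which include genes that oppose it, 3 were tested. ZEB1, a repressor of epithelial genes, had 138 ± 5.95 CPM with GABA and 115 ± 17.4 CPM in controls (0.27 ± 0.10, edgeR adjusted p = 0.023) with overlapping groups, and its call was lost in 4 of the 6 fits that leave out a library. TCF3 had -0.22 ± 0.09, and its call was lost in 5 of those 6. The other tested gene was ESRP2, an epithelial splicing regulator that is known to oppose the transition, named after its values were seen. It rose at a low level (5.96 ± 0.12 CPM with GABA and 2.20 ± 1.01 CPM in controls, 1.44 ± 0.29). SNAI1, SNAI2, TWIST1 and CDH2 were not listed.

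TGF-beta induces FN1 and LOX in many cells, and genes of its signalling moved both ways. Of the 9 that were tested 3 rose and 6 fell (median -0.39). TGFB1 rose to 274 ± 6.82 CPM with GABA, against 186 ± 1.88 CPM in controls (0.56 ± 0.06, edgeR adjusted p = 3.1e-05), and TGFB2 fell to 140 ± 12.8 CPM, against 262 ± 29.4 CPM in controls (-0.90 ± 0.09, edgeR adjusted p = 1.9e-05). INHBA, an activin subunit, rose by 1.36 ± 0.09. SMAD7 and SKIL, negative regulators that the pathway itself induces, fell (-0.54 ± 0.12 and -0.39 ± 0.10), as did the corepressor TGIF1 (-0.50 ± 0.07). Of 11 tested targets of SRF and YAP, factors that respond to actin and adhesion, 8 rose, 2 fell and 1 did not pass (median 0.30). F3 rose by 0.88 ± 0.06, LATS2 by 0.83 ± 0.10 and ANKRD1 by 0.44 ± 0.06, and AJUBA fell (-0.39 ± 0.07). LOX is usually counted among the targets of hypoxia. Of 12 tested genes of a hypoxia list, which holds the factor subunits HIF1A and EPAS1 beside targets, 6 rose and 6 fell (median -0.07). HK2, a hexokinase, rose by 0.40 ± 0.07, and VEGFA, the angiogenic factor (-0.38 ± 0.08), BNIP3L (-0.42 ± 0.06), KDM3A (-0.45 ± 0.09) and DDIT4, an inhibitor of mTOR signalling (-1.20 ± 0.12), fell. Of the factor subunits, HIF1A was among those that rose and EPAS1 fell (-0.37 ± 0.07). Fibroblast markers in the files also went both ways, with PDGFRB at -0.99 ± 0.13, COL3A1 at 0.66 ± 0.13 and THY1 at 0.33 ± 0.08. Their part in the values of the 6 genes was not tested.

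**Figure D4:**
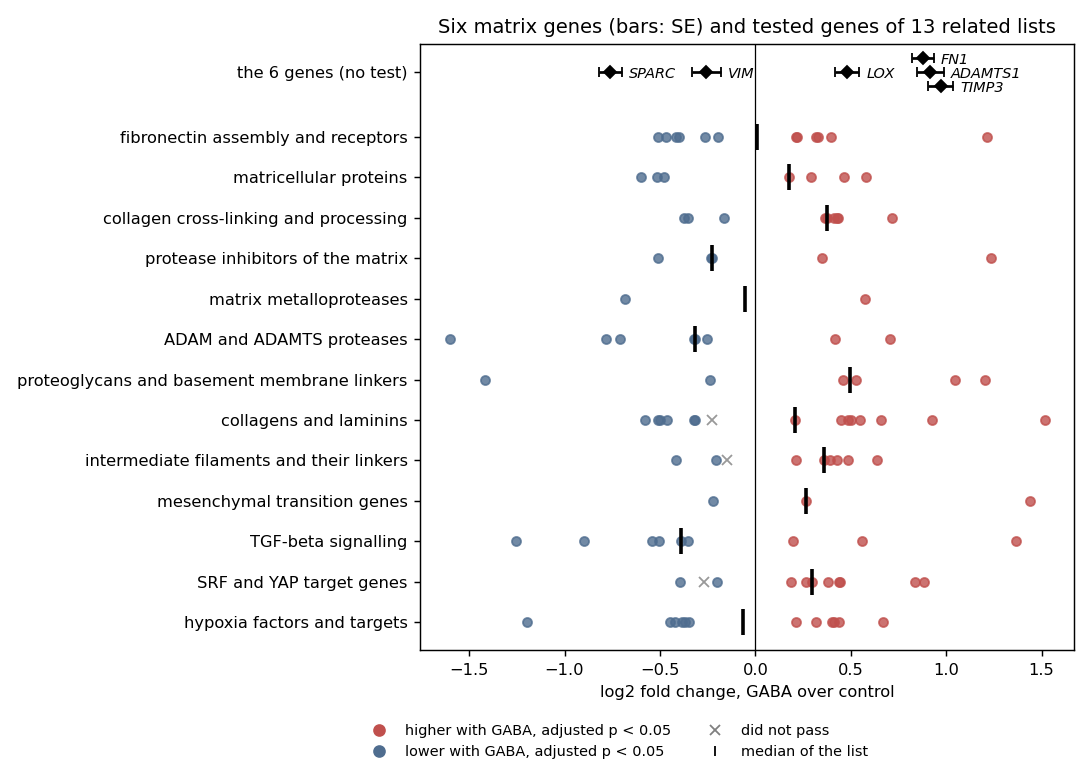
Log2 fold changes, GABA over control (horizontal axis), of the 6 genes with SE bars (top line, no test) and of the tested genes of 13 related lists; red and blue points passed edgeR's test as higher or lower with GABA, grey crosses did not pass, and black ticks are list medians. Every list holds genes on both sides of 0, with medians from -0.39 (TGF-beta signalling) to 0.49 (proteoglycans and basement membrane linkers).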

How the data were processed

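The deposited values are whole read counts per gene, 1 file per library, with Ensembl identifiers. The tools named are CASAVA 1.8 and Bowtie 0.12.2, with hg38 as the build, per the submitters' processing notes; the counting program, the annotation and the strand setting are not given in the sources used here. All 5187 identifiers were found in GENCODE release 29. A table of gene names gave 5173 symbols and GENCODE the other 14. The members, lists, motifs and tests were chosen with earlier results of these data known.

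Counts were filtered with filterByExpr (minimum count 10, minimum total 15), which left 4981 genes and removed 206, scaled with TMM and tested with the quasi-likelihood F test of edgeR 4.0.16 (R 4.3.3), GABA against control, with Benjamini-Hochberg adjustment over all tested genes and a threshold of 0.05. The SE is the absolute log2 fold change divided by the square root of F. Errors of levels are SD over 3 libraries; SE is given beside fold changes over all 6 libraries, not beside those with a library left out or under another setting. The labels name biological replicates. The p-values set the difference between groups against the spread between these cultures, which edgeR estimates in part from other genes. CPM per kb divides by the merged exon length of the GENCODE basic transcripts. Deviations used log2(CPM + 0.5).

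Genes were named from lists (up to 6 per list by smallest p among those averaging 10 CPM or more), and the listed genes overlapping a member; KRT18, FOXA1, ESRP2, HIF1A and genes called not listed were named outside this rule, knowing their values. Genes selected by this rule were in part not reported here. Simulated data were used to test the scripts. Alternatives were DESeq2 size factors, upper quartile scaling, library totals, no filter, a mean count of 10, DESeq2 1.42.0, limma-voom (limma 3.58.1), the replicate number as a block and each library left out. Tables and figures used Python 3.11.15, pandas 2.3.3 and matplotlib 3.10.9.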

Additional observations from a re-analysis of the deposited data

How the results depend on the processing

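The log2 fold changes of the 6 genes kept their sign in all 14 alternatives. All of these scaled on the listed genes alone, so unchanged genes outside the files did not anchor 0. The median log2 fold change over all tested genes was -0.18 in the main fit, and VIM, at -0.26, lay near it. FN1 moved by more than its replicate SD to 0.92 with DESeq2 size factors and to 0.92 with DESeq2, against 0.88. With a library left out, FN1 ran from 0.86 to 0.89, SPARC from -0.80 to -0.73, LOX from 0.43 to 0.52, TIMP3 from 0.93 to 1.03, ADAMTS1 from 0.86 to 0.99 and VIM from -0.34 to -0.19. Because the files list genes that differ in this comparison, such stability was largely fixed beforehand. The count of genes passing was 4918, from 4324 (DESeq2) to 5131 (no filter); leaving out a library gave 4025 to 4735, and over the 13 lists 50 to 57 higher and 34 to 50 lower. Of the calls, 48.2% were higher, against 53.7% with DESeq2 size factors, 54.8% with DESeq2 and 49.3% to 51.9% with a library left out, so the more frequent direction was not settled. Small list counts moved. With DESeq2 size factors and with DESeq2, 1 gene each of the proteoglycan list and of the intermediate filament list fell, and 0 transition genes fell; without scaling, 1 filament gene fell. With a library left out, 1 to 3 matricellular genes rose and 0 to 3 cross-linking genes, 0 to 2 proteoglycan genes, 3 to 7 collagens and laminins and 0 to 3 filament genes fell, while 1 to 2 transition genes rose and 0 to 1 fell. The causes were not tested. Of 70 named list genes, 64 kept direction and call in every alternative and 6 lost the call in some (EFEMP2, NID1, SYNM, ZEB1, TCF3 and CCN2). With the replicate block the 6 genes had 0.88, -0.76, 0.48, 0.97, 0.92 and -0.25 in the order above; same-numbered libraries showed no shared deviation (correlations 0.0007, -0.091 and -0.036), so the numbers were not taken as pairs. Totals over listed genes are not depths, so no limit from sequencing depth can be stated.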
